A study of Mus musculus with 10 samples.

Results

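The Egr and Nr4a early response factors were followed as 9 genes, Egr1, Egr2, Egr3, Nr4a1, Nr4a2, Nr4a3, Nab2, Ier2 and Myc, out of 22180 genes measured on 10 arrays of mouse T helper cells. Each was read through a probe set that the platform's probe table pairs with 1 gene symbol. Nab2 had a second such probe set, and the one with the higher mean over the 10 arrays stood for it. All 9 genes were found, and no filter on low values was used.

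Most of these genes are switched on soon after a T cell receptor binds its ligand, without the need for new protein, and most of their transcripts are short-lived. Egr1, Egr2 and Egr3 are zinc finger transcription factors induced through the MAP kinase pathway. Nab2 is a corepressor that binds Egr proteins and is itself induced by them. Nr4a1 (Nur77), Nr4a2 (Nurr1) and Nr4a3 (Nor1) are orphan nuclear receptors whose activity is set mainly by how much of them is made, and Nr4a1 is widely used as a reporter of recent receptor signalling. Ier2 is a nuclear immediate early protein, and Myc is the factor that drives growth and biosynthesis of activated T cells.

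CD4-positive lymphocytes were taken from spleens of wild-type female Balb/c mice aged 10 to 14 weeks. Th17 cultures (4 arrays) were given 3 cytokines, TGF-beta (5 ng/ml), IL-6 (20 ng/ml) and IL-23 (10 ng/ml), together with anti-interferon gamma (10 µg/ml). Th2 cultures (3 arrays) were given IL-4 (100 ng/ml) and the same blocking antibody, and Th0 controls (3 arrays) had neither, so cytokines and blocking antibody cannot be told apart in comparisons with Th0. CD28 (30 ng/ml) and CD3 (4 µg/ml) were engaged by antibody in every culture, so no group is an unstimulated baseline, and medium was replaced at 72 h. When cells were harvested, and so the time since the last stimulation, is not stated in these sources. Values are log2 expression made by RMA (robust multi-array average), and a difference of 1 is 2-fold. The titles call the replicates biological, but whether they came from separate animals is not stated, so each p-value rests on the spread among these cultures, which may be technical.

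Arrays of 1 group could lie far from each other. On principal component 1, with 35.8% of the variance, Th17 replicate 4 scored 37.5 and Th2 replicates 2 and 3 scored 38.8 and 55.8, while the other 7 arrays scored -0.96 or lower. Th2 replicate 1 had the lowest score of all (-34.0), so the Th2 group was split, and the 3 high-scoring arrays are those called apart on the first component. The defining T cell transcripts Cd3e and Cd4 were present on every array, at 9.36 to 10.44 and 7.09 to 8.76. The mean of 7 measured T cell markers, of 11 listed, was 8.62 on Th17 replicate 4 and 8.44 and 8.58 on Th2 replicates 2 and 3, and 8.97 or more on each other array. Markers of basophils and mast cells (8 genes) averaged 5.67 and 5.85 on Th17 replicates 2 and 3 and 7.25 on Th0 replicate 1, and 4.23 or less elsewhere. Th17 replicate 1 had 3 of 8 myeloid markers (Lyz2, S100a8 and S100a9) and 3 of 7 B cell markers (Cd79a, Cd79b and Ighm) over 2-fold above their 10-array medians (0.834% of all genes), with S100a8 at 7.16 and Ighm at 10.41. The other markers of both lists were not, with Adgre1 at 2.89, Ms4a1 at 2.70 and Cr2 at 2.69 on that array. Comparisons were also made with each of these sets of 3 arrays left out. In bulk RNA of this kind, fewer cells of a type and less transcript per cell cannot be told apart.

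The main pattern in the family was a split within the Th2 group. Th2 replicates 2 and 3 carried the highest levels of Nr4a1, Nr4a2, Nr4a3, Egr1, Egr2 and Myc of all 10 arrays, whereas Th2 replicate 1 was among the lowest arrays for the Nr4a genes and Myc. Egr3 and Nab2 followed another pattern: they were lower on all 4 Th17 arrays than on every Th2 and Th0 array. None of the 9 genes passed the test in any comparison (limma, adjusted p under 0.05 over all genes).

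**Figure D1:**
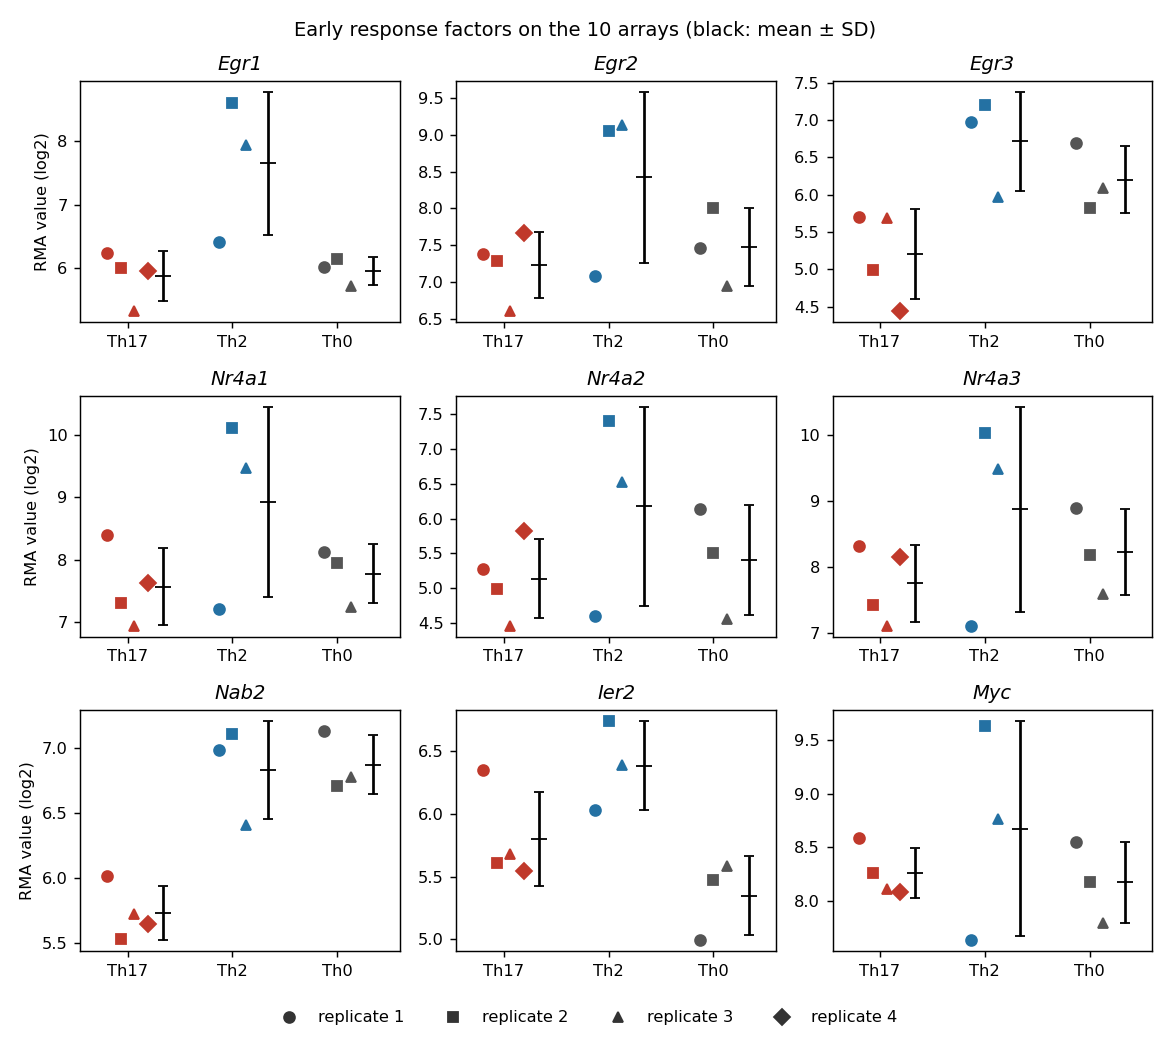
Log2 RMA value (vertical axis) of each gene on each array, by group (Th17, n = 4; Th2, n = 3; Th0, n = 3). Symbols mark the replicate number and black bars the mean ± SD; Th2 replicates 2 and 3 stand at the top for Nr4a1, Nr4a2, Nr4a3, Egr1, Egr2 and Myc, and Nab2 and Egr3 are lowest on the Th17 arrays.

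Nr4a1 stood at 8.40, 7.30, 6.94 and 7.63 on Th17 replicates 1 to 4, at 7.21, 10.12 and 9.47 on Th2 replicates 1 to 3 and at 8.13, 7.95 and 7.24 on Th0 replicates 1 to 3. The 2 high Th2 arrays lay above all others, and the third lay within the range of the Th17 arrays and just under that of the Th0 arrays. Nr4a2 was at 5.27, 4.98, 4.46 and 5.83 in Th17, at 4.59, 7.40 and 6.53 in Th2 and at 6.13, 5.50 and 4.56 in Th0 cells. Nr4a3 was at 8.32, 7.43, 7.11 and 8.16 in Th17, at 7.12, 10.02 and 9.49 in Th2 and at 8.90, 8.18 and 7.60 in Th0 cells. The same Th2 arrays were at the top of both genes, and all groups overlapped.

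The distance between Th2 arrays was large for these 3 receptors. Between the lowest and the highest Th2 array Nr4a1 differed by 2.91 (7.5-fold), Nr4a2 by 2.81 (6.99-fold) and Nr4a3 by 2.91 (7.51-fold). Of all genes only 0.307%, 0.388% and 0.28% had an SD within Th2 as large as those of Nr4a1 (1.53), Nr4a2 (1.44) and Nr4a3 (1.55), against a median SD of 0.26 over all genes. Within Th17 the 3 genes had SDs of 0.62, 0.57 and 0.58, and within Th0 of 0.47, 0.79 and 0.65.

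Differences between group means of the receptors lay within this spread. Nr4a1 averaged 7.57 ± 0.62 in Th17 (SD, n = 4), 8.93 ± 1.53 in Th2 (SD, n = 3) and 7.77 ± 0.47 in Th0 cells (SD, n = 3). Its difference of Th2 from Th0 was 1.16 ± 0.63 (SE, limma, adjusted p = 0.807) with a 95% interval of -0.23 to 2.55. Th17 minus Th0 was -0.20 ± 0.59 (SE, limma, adjusted p = 0.999), with an interval of -1.50 to 1.09. That interval leaves room for a difference of over 2-fold in either direction, but its width also carries the spread among the Th2 arrays. Fitted with only the 2 compared groups, the difference was the same with an SE of 0.34. Th17 minus Th2 was -1.37 (limma, adjusted p = 0.753). For Nr4a2 these differences were 0.78, -0.26 and -1.04, and for Nr4a3 they were 0.65, -0.47 and -1.12. The differences with Th2 rested on Th2 replicates 2 and 3: without the 3 arrays apart on the first component, Th2 minus Th0 was -0.56 for Nr4a1, -0.80 for Nr4a2 and -1.11 for Nr4a3, and Th17 minus Th2 was 0.34, 0.31 and 0.51. Th17 replicate 4, the other array left out there, had Nr4a levels inside the range of the remaining Th17 arrays except for Nr4a2.

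**Figure D2:**
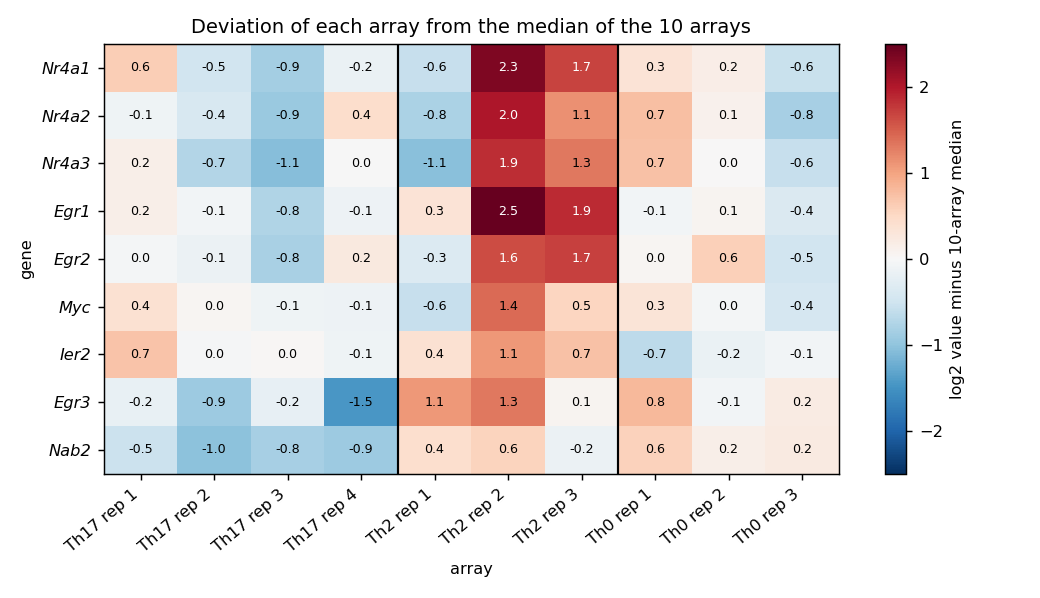
Log2 value of each gene (rows) on each array (columns) minus the gene's median over the 10 arrays, on a colour scale from -2.5 to 2.5. Th2 replicate 2 is over 2-fold above the median for 8 of 9 genes and Th2 replicate 3 for 5, and the Th17 columns are below the median for Egr3 and Nab2.

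Egr1 and Egr2 shared the split. Egr1 was at 6.23, 6.01, 5.33 and 5.96 in Th17, at 6.41, 8.60 and 7.94 in Th2 and at 6.02, 6.14 and 5.71 in Th0 cells. Even the lowest Th2 array, replicate 1, stood above all Th17 and Th0 arrays, though by only a small step over Th17 replicate 1. Egr1 averaged 7.65 ± 1.12 in Th2 against 5.96 ± 0.22 in Th0 cells (SD, n = 3 each), a difference of 1.69 ± 0.45 (SE, 3.23-fold, limma, adjusted p = 0.767), larger than 99.9% of all genes in that comparison. Its difference of Th17 from Th2 was -1.77 ± 0.42 (SE, limma, adjusted p = 0.296), and of Th17 from Th0 -0.08 ± 0.42 (SE, limma, adjusted p = 0.999). Without the 3 arrays apart, Th2 minus Th0 was 0.45 and Th17 minus Th2 was -0.56, both resting on Th2 replicate 1 alone.

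Egr2 was at 7.38, 7.28, 6.61 and 7.67 in Th17, at 7.09, 9.05 and 9.13 in Th2 and at 7.46, 8.01 and 6.95 in Th0 cells. It was the 1 gene whose highest value fell on Th2 replicate 3, and its groups overlapped because of Th2 replicate 1. Th2 minus Th0 was 0.95 ± 0.50 (SE, limma, adjusted p = 0.804) and Th17 minus Th2 was -1.19 ± 0.47 (SE, limma, adjusted p = 0.704). These were -0.39 and 0.0026 without the 3 arrays apart on the first component, with Th2 replicate 1 as the only Th2 array.

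Upstream sequences are shown to let the motifs for stimulus-responsive factors be read beside the levels. They cover some genes that shared the split, and Nab2, which did not. No window was at hand for Egr1 and Myc, which shared the split, nor for Egr3 and Ier2. RefSeq windows (GRCm38.p6) were at hand for Egr2, Nr4a1, Nr4a2, Nr4a3 and Nab2, and the 250 bases before the annotated start are printed 5′ to 3′. Egr2 had 5 annotated starts, and the window shown is one of 3 overlapping windows that hold both a CArG box, the site of serum response factor, and 2 copies of TGACG. Capitals mark TGACG, the short form of the cyclic AMP response element (CRE), on either strand, the CArG box and the EGR site GCGNGGGCG on either strand.
Nr4a1, chr15:101266596-101266845, plus strand: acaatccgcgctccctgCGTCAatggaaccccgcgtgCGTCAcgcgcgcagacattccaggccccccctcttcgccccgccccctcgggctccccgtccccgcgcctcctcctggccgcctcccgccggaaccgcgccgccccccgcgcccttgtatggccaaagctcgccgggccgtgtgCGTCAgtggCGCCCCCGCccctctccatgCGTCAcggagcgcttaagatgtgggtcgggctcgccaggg
Nr4a2, chr2:57124004-57124253, minus strand: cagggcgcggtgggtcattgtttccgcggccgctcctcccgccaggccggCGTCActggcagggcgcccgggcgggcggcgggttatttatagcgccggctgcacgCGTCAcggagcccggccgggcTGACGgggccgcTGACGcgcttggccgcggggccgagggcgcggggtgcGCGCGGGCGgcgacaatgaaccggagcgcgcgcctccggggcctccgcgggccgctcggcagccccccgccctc
Nr4a3, chr4:48045055-48045304, plus strand: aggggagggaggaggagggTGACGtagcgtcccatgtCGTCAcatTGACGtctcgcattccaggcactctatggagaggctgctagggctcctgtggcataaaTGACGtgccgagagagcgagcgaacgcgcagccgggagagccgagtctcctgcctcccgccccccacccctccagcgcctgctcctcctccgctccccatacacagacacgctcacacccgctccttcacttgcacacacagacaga
Egr2, chr10:67537619-67537868, plus strand: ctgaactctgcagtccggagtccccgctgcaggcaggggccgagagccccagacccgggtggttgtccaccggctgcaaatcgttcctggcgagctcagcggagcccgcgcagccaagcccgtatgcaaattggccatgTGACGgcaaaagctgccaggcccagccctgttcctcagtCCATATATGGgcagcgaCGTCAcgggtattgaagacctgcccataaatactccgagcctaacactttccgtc
Nab2, chr10:127666704-127666953, minus strand: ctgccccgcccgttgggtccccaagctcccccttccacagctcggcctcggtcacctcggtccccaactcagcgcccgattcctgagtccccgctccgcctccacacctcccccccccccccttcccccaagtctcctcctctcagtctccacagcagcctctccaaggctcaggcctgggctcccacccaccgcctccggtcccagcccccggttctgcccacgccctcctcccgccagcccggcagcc

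Each of the 3 Nr4a windows held 4 copies of TGACG, a number reached by 0.137% of 32851 windows. The Egr2 window shown held 2, reached by 3.9%, but it was picked for holding these motifs. The Egr2 windows that start at 67535249 and 67537316 held 0. A single TGACG is common, being present in 17.8% of all windows, and the full element TGACGTCA, which contains the short form (1.55%), was in none of the 5 genes' windows. The copies lay from -233 to -36 relative to the start in Nr4a1, from -200 to -107 in Nr4a2 and from -231 to -143 in Nr4a3. An EGR site (4.7% of windows) was present in Nr4a1, at -60 to -52, and in Nr4a2, at -74 to -66. The CArG box of Egr2 (1.47% of windows) lay at -72 to -63, between its 2 copies of TGACG. Nr4a2 also held a match to the MEF2 site, printed in lower case above, at -167 to -158 (2.92% of windows). Windows differ in base composition, which also sets how often GC-rich letters occur. None of these motifs occurred in the Nab2 window, nor in any of the 5 windows the NBRE AAAGGTCA bound by Nr4a proteins (1.34%) or the AP-1 site TGANTCA (6.75%). The E-box CACGTG (6.02%) occurred in another Egr2 window only. The motifs were chosen with the expression values known, and a match describes the letters in the window and no binding.

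**Figure D3:**
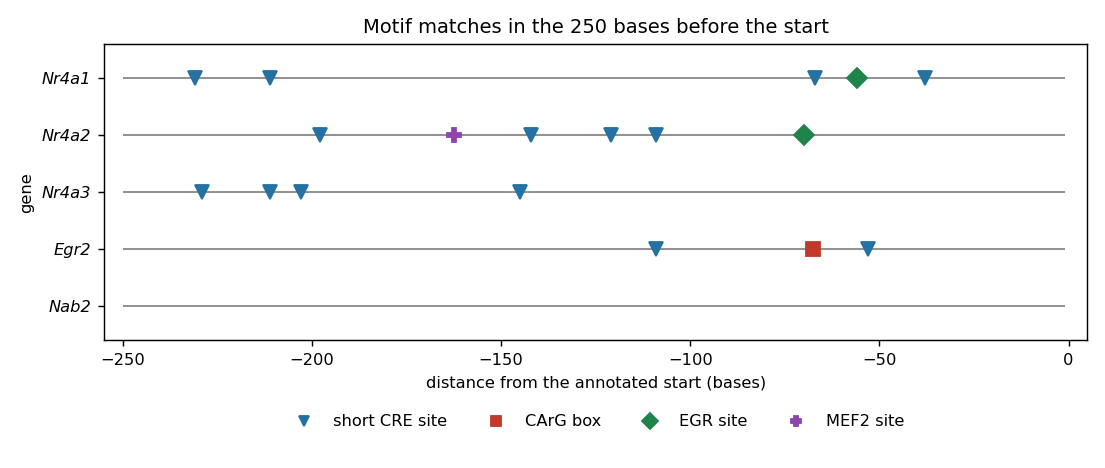
Position of motif matches (bases from the annotated start, horizontal axis) in the 250 bases before Nr4a1, Nr4a2, Nr4a3, Egr2 (the window shown in the text) and Nab2. The Nr4a windows hold 4 copies each of TGACG, the short CRE site, and the Nab2 window holds none.

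Egr3 did not share the split. It was at 5.70, 4.99, 5.69 and 4.44 on Th17 replicates 1 to 4, at 6.98, 7.20 and 5.96 in Th2 and at 6.70, 5.82 and 6.09 in Th0 cells. All 4 Th17 arrays lay below all others, and Th2 replicate 3, which was high for Egr1 and Egr2, was the lowest Th2 array. Its mean was 5.20 ± 0.61 in Th17 (SD, n = 4), against 6.71 ± 0.66 in Th2 and 6.20 ± 0.45 in Th0 cells (SD, n = 3 each). Th17 minus Th2 was -1.51 ± 0.37 (SE, limma, adjusted p = 0.337) and Th17 minus Th0 was -0.996 ± 0.37 (SE, limma, adjusted p = 0.879), so the order Th2, Th0, Th17 was not established by the test.

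Nab2 separated the Th17 arrays from both other groups. The Th17 arrays stood at 6.01, 5.53, 5.72 and 5.64, the Th2 arrays at 6.98, 7.10 and 6.40 and the Th0 arrays at 7.13, 6.70 and 6.78. No Th17 value overlapped either other group, while Th2 and Th0 lay in the same range. Nab2 averaged 5.73 ± 0.21 in Th17 (SD, n = 4) against 6.87 ± 0.23 in Th0 cells (SD, n = 3), a difference of -1.14 ± 0.20 (SE, 2.21-fold) that missed the threshold (limma, adjusted p = 0.0838, unadjusted p = 0.000139). Against Th2 cells (6.83 ± 0.37, SD, n = 3) the difference was -1.10 ± 0.20 (SE, 2.15-fold, limma, adjusted p = 0.102). Th2 minus Th0 was -0.04, with a 95% interval of -0.51 to 0.43.

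Both Nab2 differences kept their direction in every setting tried, with Th17 minus Th0 between -1.24 and -0.91 and Th17 minus Th2 between -1.31 and -0.96. With array weights both passed (limma, adjusted p = 0.0312 and 0.0105). That setting called 60 and 330 of all genes in these comparisons, against 23 and 17 without weights. In Th17 minus Th0 the adjusted p was 0.0669 (limma) without the 3 arrays apart on the first component. Without the 3 arrays high in basophil and mast cell markers the difference was -0.91 (limma, adjusted p = 1.00), from Th17 replicates 1 and 4 and Th0 replicates 2 and 3. The second Nab2 probe set was dimmer, at 4.91, 4.39, 3.95 and 4.51 on Th17 replicates 1 to 4, at 5.59, 5.58 and 4.69 in Th2 and at 4.36, 5.61 and 5.76 in Th0 cells. There Th17 overlapped both groups, through Th2 replicate 3 and Th0 replicate 1. The mean of both probe sets gave Th17 minus Th0 as -0.97 (limma, adjusted p = 0.361).

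Ier2 was at 6.35, 5.61, 5.68 and 5.54 in Th17, at 6.03, 6.73 and 6.38 in Th2 and at 4.99, 5.47 and 5.58 in Th0 cells. All 3 Th2 arrays were above the Th0 arrays, including replicate 1, while Th17 replicate 1 reached the Th2 range. Th2 cells averaged 6.38 ± 0.35 against 5.35 ± 0.31 in Th0 cells (SD, n = 3 each), a difference of 1.03 ± 0.26 (SE, 2.05-fold, limma, adjusted p = 0.767, unadjusted p = 0.00218). Unlike the differences of the Nr4a genes it stayed above 0 in all 20 other settings, from 0.68 to 1.21. Th17 minus Th0 was 0.45 ± 0.24 (SE, limma, adjusted p = 0.999), and 0.26 without Th17 replicate 1.

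Myc stood at 8.59, 8.26, 8.12 and 8.09 in Th17, at 7.64, 9.63 and 8.77 in Th2 and at 8.55, 8.18 and 7.80 in Th0 cells. The Th2 arrays held both the lowest and the highest of the 10 values, and the 4 Th17 arrays were close together (SD 0.23). The means were 8.26 in Th17, 8.68 in Th2 and 8.18 in Th0 cells, with Th2 minus Th0 at 0.50 (95% interval -0.39 to 1.39) and Th17 minus Th0 at 0.09 (-0.74 to 0.92). Over the 7 arrays with low component scores, Th2 minus Th0 of Myc was -0.54, and Th17 minus Th2 was 0.69, against -0.41 with all arrays.

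Counted over the family, 0 of 9 genes were called in Th17 minus Th0, where 0.104% of all genes were, 0 in Th2 minus Th0, where 0% were, and 0 in Th17 minus Th2, where 0.0766% were. At an unadjusted p under 0.05 (limma) the genes lower in Th17 than in Th0 were Egr3 and Nab2 (2 of 9, background 2.67%), and those higher in Th2 than in Th0 were Egr1 and Ier2 (2 of 9, background 3.36%). In Th17 minus Th2 they were Egr1, Egr2, Egr3, Nr4a1, Nab2 and Ier2, all lower in Th17 (6 of 9, background 3.07%). The groups did not overlap for Egr3 and Nab2 in Th17 minus Th0 (2 of 9 lower, background 4.35%), for Egr1 and Ier2 in Th2 minus Th0 (2 of 9 higher, background 4.48%) and for Egr1, Egr3 and Nab2 in Th17 minus Th2 (3 of 9 lower, background 3%). Differences were below 0 for 7 of 9 in Th17 minus Th0 (53.2% of all genes), above 0 for 8 of 9 in Th2 minus Th0 (47.7%) and below 0 for 9 of 9 in Th17 minus Th2 (51.6%). When the 3 arrays apart on the first component were left out, 4 of 9 were above 0 in Th2 minus Th0 and 4 of 9 below 0 in Th17 minus Th2. When instead the 3 arrays high in basophil and mast cell markers were left out, 2 of 9 were below 0 in Th17 minus Th0. With all arrays the median difference of the 9 genes was -0.24, 0.78 and -1.12 in the same order, against -0.02, -0.01 and -0.01 over all genes. The 3 comparisons share arrays and are not independent.

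**Figure D4:**
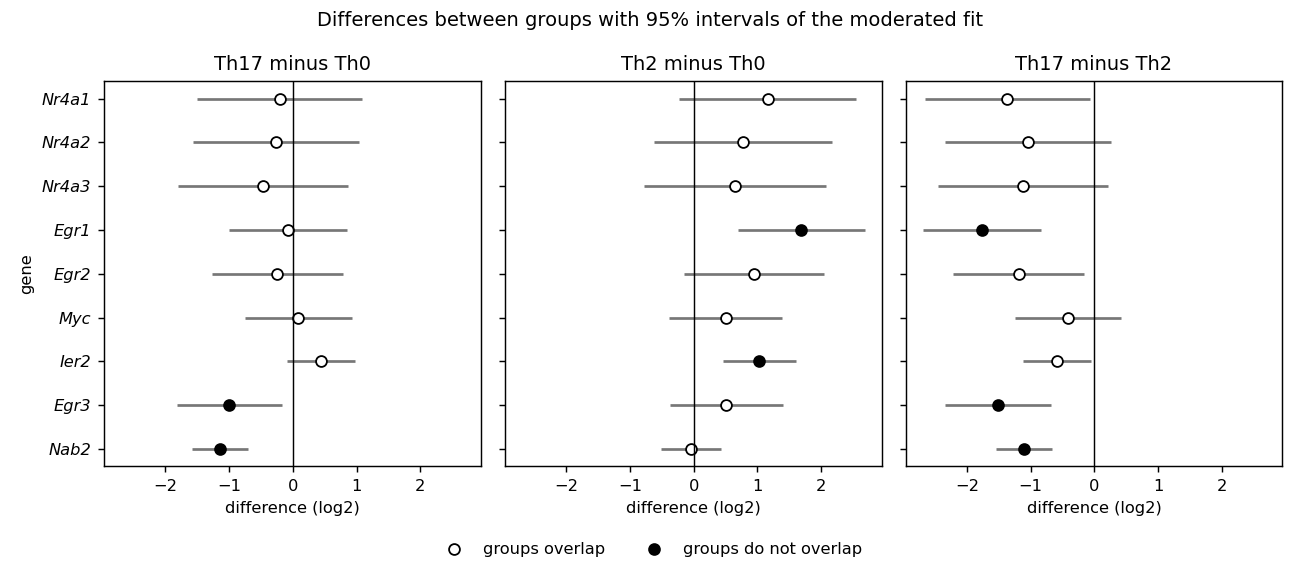
Difference in log2 expression (points) with the 95% interval of the moderated fit (lines) for each gene in Th17 minus Th0, Th2 minus Th0 and Th17 minus Th2. Filled points mark groups that do not overlap: Egr3 and Nab2 in the first panel, Egr1 and Ier2 in the second and Egr1, Egr3 and Nab2 in the last.

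Leaving out Th2 replicate 1 moved several genes past the threshold. Without it, Egr1 (2.31), Egr2 (1.62) and Nr4a1 (2.02) were called in Th2 minus Th0 (limma, adjusted p = 0.0177, 0.0409 and 0.0368), and Egr1, Egr2, Nr4a1 and Nr4a3 in Th17 minus Th2. In the same setting 431 and 298 of all genes were called, against 0 and 17 with all arrays. In that setting the Th2 group consists of the 2 Th2 arrays with high scores on the first component, so these calls describe those arrays.

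Read array by array, Th2 replicate 2 was over 2-fold above the 10-array median for 8 of 9 genes, all but Nab2, where 1.74% of all genes were. Th2 replicate 3 was so for 5 of 9, the 3 Nr4a genes, Egr1 and Egr2 (background 1.52%), and Th2 replicate 1 for Egr3 alone (background 0.839%). No Th17 array was over 2-fold above the median for any of the 9 genes (background 0.834%, 0.699%, 0.757% and 1.44% on replicates 1 to 4), and neither was any Th0 array (0.92%, 0.915% and 0.424%). Th17 replicate 3 held the lowest value of 5 of the 9 genes, and over 2-fold below the median there was Nr4a3 (background 0.122%). Over 2-fold below were also Nr4a3 on Th2 replicate 1 (background 0.41%), Nab2 on Th17 replicate 2 (0.343%) and Egr3 on Th17 replicate 4 (1.72%). Th17 replicate 4 stood as far out on the first component as Th2 replicate 2 (37.5 and 38.8) but had a median deviation over the 9 genes of -0.12, against 1.63 on Th2 replicate 2 and 1.15 on Th2 replicate 3.

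Pairs of genes were compared across the 10 arrays (36 pairs, permutation test with 100000 resamples, two-sided, adjusted by the Benjamini-Hochberg method over the pairs). Nr4a2 and Nr4a3 had a Pearson r of 0.97 and a Spearman rho of 0.92 (permutation, p = 3e-05 and 0.00055, adjusted 0.00072 and 0.00495). Leaving out the 2 arrays farthest from the median of Nr4a2, r was 0.91 (permutation, adjusted p = 0.0475). Nr4a1 and Nr4a3 had r of 0.96 and rho of 0.98 (permutation, adjusted p = 0.00072 and 0.00108), and r of 0.89 over 8 arrays (permutation, adjusted p = 0.0532). The 3 receptors thus went together also among arrays without the extremes, though only 1 of their 3 pairs passed there.

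For Egr1, Th2 replicates 2 and 3 formed a cluster of their own, so its relations are given over the other 8 arrays. There r was 0.58 with Egr2, 0.53 with Nr4a1, 0.33 with Nr4a2 and 0.29 with Nr4a3, and none passed (permutation, adjusted p from 0.423 to 0.855). Egr3 and Nab2 had r of 0.89 and rho of 0.94 (permutation, p = 0.0003 and 0.00027, adjusted 0.0018 and 0.00324), r of 0.88 over 8 arrays (permutation, adjusted p = 0.0475) and also passed after group means were subtracted (permutation, adjusted p = 0.00571). It was the only one to pass among the 8 pairs with Egr3 and the 8 with Nab2. In all 17 of 36 pairs passed over 10 arrays, 16 after group means were subtracted and 2 without the 2 arrays farthest from the median. Values with group means subtracted are not freely exchangeable among arrays, so the p-values after that step are approximate and may be too small. Subtracting group means also keeps the split within Th2, so it is no check on that split.

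**Figure D5:**
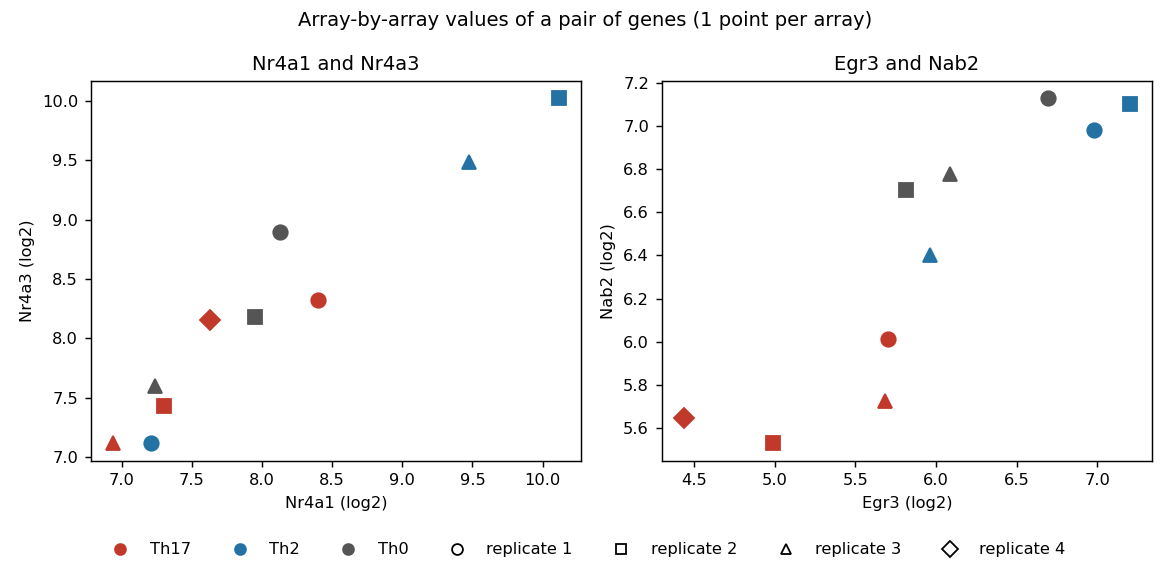
Log2 values of Nr4a3 against Nr4a1 (left) and of Nab2 against Egr3 (right), 1 point per array, coloured by group with the replicate number as symbol. In the left panel Th2 replicates 2 and 3 lie at the upper end and Th2 replicate 1 at the lower end, and in the right panel the 4 Th17 arrays lie at the lower left.

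Genes most like these patterns were sought among 899 genes with a mean of at least 6 and an SD of at least 0.5, as a description over the 10 arrays. The mean of Egr1, Egr2 and Egr3 was tracked most closely by Dimt1 (r = 0.94), a ribosomal RNA methyltransferase, Shmt1 (0.94), a serine hydroxymethyltransferase, Snhg15 (0.92), Orai1 (0.92), the pore of the calcium channel opened by receptor signalling, and Slamf1 (0.92). The mean of the Nr4a genes was tracked by the glutamine transporter Slc1a5 (0.92), the cytokine Csf2 (0.91), Eaf1 (0.90), Rab26os (0.90) and Slamf1 (0.89). Myc was tracked by Rab26os (0.96), Zdhhc13 (0.95), Ppp1r15a (0.91), Sdad1 (0.91) and Dimt1 (0.89). Csf2, for example, was at 6.06, 6.90, 5.79 and 6.48 in Th17, at 6.06, 8.62 and 8.12 in Th2 and at 7.10, 6.87 and 5.98 in Th0 cells, and each of the genes named had its highest value on Th2 replicate 2. Spearman rho was lower than r for each: 0.68 to 0.81 for the Egr mean, 0.73 to 0.92 for the Nr4a mean and 0.81 to 0.96 for Myc. The Egr mean includes Egr3, which did not share the split.

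Among 25 other early response genes measured (26 listed), 0 were called in Th2 minus Th0 and 7 were higher at an unadjusted p under 0.05 (limma), where 0% and 3.36% of all genes were, with a median difference of 0.50. At the same unadjusted threshold 1 was lower, Nfil3 (-1.08). Differences were above 0 for 19 of the 25 (47.7% of all genes). Fosb, a Fos family subunit of the AP-1 factor, was at 5.44, 4.07, 3.59 and 3.62 in Th17, at 3.01, 7.56 and 6.46 in Th2 and at 3.40, 3.76 and 3.26 in Th0 cells. It had the largest difference of the list in Th2 minus Th0, 2.20, and those of Gadd45b, a stress-response protein, Ier5 and the transcription factor Irf4 were 1.46, 1.25 and 1.10 (limma, adjusted p = 0.767 each). On Th2 replicate 2, 9 of the 25 were over 2-fold above the median (Fos, Fosb, Ier5, Dusp1, Dusp2, Dusp6, Atf3, Gadd45b and Klf4; 1.74% of all genes), and on Th2 replicate 3 there were 3 (Fos, Fosb and Atf3; 1.52%). Th17 replicate 1, the array where some of the myeloid and B cell markers were raised, also had 3, Fos, Fosb and Fosl2 (0.834%), and the part of those markers was not tested.

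Of that list, Jun was called in Th17 minus Th0 and Dusp6 in Th17 minus Th2. Jun, another AP-1 subunit, was higher in Th17 than in Th0 cells by 2.56 (limma, adjusted p = 0.0381), on all 4 Th17 arrays (6.32, 6.94, 6.74 and 6.90) against 4.33, 3.99 and 4.18 in Th0 cells. Dusp6, a phosphatase that switches off ERK, was lower in Th17 than in Th2 cells, with a difference of -1.64 (limma, adjusted p = 0.0391), at 7.99, 7.99, 8.60 and 8.57 against 9.53, 10.25 and 10.00, with its highest values on Th2 replicates 2 and 3. The Th0 arrays, at 9.62, 9.04 and 9.08, also lay above all Th17 arrays, and that difference was not called (-0.96, limma, adjusted p = 0.431). Nab1, the other Nab corepressor, was at 5.94, 5.84, 6.21 and 4.73 in Th17, at 5.26, 5.28 and 5.00 in Th2 and at 5.09, 5.67 and 5.18 in Th0 cells, with Th17 replicate 4 lowest of all. Egr4, the remaining Egr factor, was low on every array (3.40 to 4.66).

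Of 23 measured receptor signalling genes and activation readouts (25 listed), 0 were called in any comparison (limma). In Th2 minus Th0, 5 were higher at an unadjusted p under 0.05 (3.36% of all genes), and 1, Tnfrsf18, was lower. There 10 of 23 differences were above 0 (47.7% of all genes), with a median of -0.13. Tnfrsf18 differed by -1.31 (limma, adjusted p = 0.767), and the readouts Tnfrsf9, Cd5 and Icos by -0.54, -0.35 and -0.22. Cd69, an early activation marker, was at 9.26, 8.65, 8.43 and 9.19 in Th17, at 7.53, 10.22 and 9.55 in Th2 and at 8.13, 7.70 and 7.49 in Th0 cells. Tnf was at 8.54, 8.77, 8.64 and 9.09 in Th17, at 8.80, 10.35 and 10.35 in Th2 and at 8.05, 8.08 and 8.41 in Th0 cells. Both were highest on Th2 replicates 2 and 3. Il2 was at 9.41, 10.17, 9.68 and 10.17 in Th17, at 8.97, 11.08 and 10.56 in Th2 and at 9.86, 7.71 and 5.24 in Th0 cells, with the 4 Th17 arrays close together and the Th0 arrays far apart. On Th2 replicates 2 and 3 the signalling genes Nfatc2, Plcg1, Prkcq and Rasgrp1 were over 2-fold below the 10-array median, as was Tnfrsf18 on replicate 3. Prkcq and Rasgrp1 were also this low on Th17 replicate 4 (6.74 and 5.87), the other array apart on the first component. On that array 1.72% of all genes were over 2-fold below, and the share on those Th2 arrays is not given here.

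Genes linked to Egr2 and Egr3 in T cell anergy (19 measured of 20) had 0 called in any comparison (limma), with 3 lower (2.67% of all genes) and 1 higher, Socs3 (0.94), at an unadjusted p under 0.05 in Th17 minus Th0 and a median of -0.17. Tnfrsf9 (4-1BB) differed there by -1.64 (limma, adjusted p = 0.249). In Th2 minus Th0, 8 of the 19 differences were above 0 (47.7% of all genes), with a median of -0.24. At an unadjusted p under 0.05 (limma), 0 were higher in that comparison (3.36% of all genes) and 3 were lower, Socs3, Lag3 and Cblb. Socs3, an inhibitor of cytokine signalling, differed by 2.01 in Th17 minus Th2 (limma, adjusted p = 0.102). Of 15 genes linked to Nr4a factors in exhausted and tolerant cells (16 listed), Nt5e (CD73) alone was called, in Th17 minus Th0 (1.99, limma, adjusted p = 0.0381) and in Th17 minus Th2 (1.99, limma, adjusted p = 0.0391). Nt5e was at 3.44 and 3.70 on the Th2 arrays with high Nr4a levels. It was also low on Th2 replicate 1 (4.71) and on the Th0 arrays (3.65, 3.96 and 4.24), against 5.63 to 6.28 on the Th17 arrays.

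Of 25 measured Myc target genes (28 listed), 0 were called (limma) and 21 had lower means in Th17 than in Th2 cells, where 51.6% of all genes did, with a median of -0.43. In Th2 minus Th0, 19 of 25 had a difference above 0 (47.7% of all genes), and the largest was that of Rrp9, a nucleolar protein (1.08, limma, adjusted p = 0.767). The list's mean was 7.94, 7.77, 7.65 and 7.70 in Th17, 7.83, 8.41 and 7.98 in Th2 and 7.63, 7.79 and 7.86 in Th0 cells, highest on the array with the highest Myc. Of the 12 genes of the Myc network the antagonists Mxi1, Mxd1 and Mxd4 differed by 1.55, 1.24 and 0.97 in Th17 minus Th2, and none was called (limma, adjusted p = 0.304, 0.549 and 0.653). Cell cycle genes (15 measured of 16) went the other way from Myc on the Th2 arrays: their mean was 8.03 on Th2 replicate 1, where Myc was lowest, and 6.51 and 6.47 on Th2 replicates 2 and 3. It was also low on Th17 replicates 2 and 4 (6.55 and 6.78), where Myc was not high. Basophil and mast cell markers averaged 4.07 on Th2 replicate 1 and 3.22 and 3.32 on Th2 replicates 2 and 3. The part that cell cycle state and the levels of T cell, basophil and mast cell markers had in the split was not tested. Without the 3 arrays high in basophil and mast cell markers, none of them Th2, Th17 minus Th0 was 0.42 for Nr4a1, 0.52 for Nr4a2 and 0.35 for Nr4a3.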

How the data were processed

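Expression of messenger RNA was measured on 10 Affymetrix arrays, 1 per sample, in 3 groups taken from the sample titles (4 Th17, 3 Th2 and 3 Th0). The description of Th2 replicate 3 carries the number 4. The deposited values are on a log2 scale, and the authors used RMA and Affymetrix Expression Console 1.3.0.187 per the submitters' processing notes. RMA compresses differences between weak signals, and its quantile step hides changes in total RNA per cell. The number of arrays limits the precision. No build behind the probe sets is stated in these sources.

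Of 41345 probe sets, 23521 had 1 gene symbol, 1814 had several and 16010 were not in the probe table. The probe set with the highest mean stood for each of 22180 genes, and all 9 symbols matched RefSeq (GRCm38.p6) by Entrez ID. All 10 arrays entered 1 limma 3.58.1 model with a mean per group (lmFit, eBayes, R 4.3.3, 7 residual degrees of freedom), giving two-sided p-values with Benjamini-Hochberg adjustment across the 22180 genes, called under 0.05. The procedure was tested on simulated data. Alternatives covered each array left out, replicate blocks, a second quantile normalization, a mean filter of 5, the mean of a gene's probe sets, trended and robust moderation, array weights, the 2 compared groups alone, and both sets of 3 arrays left out. The 9 genes are all named. From each list the called genes, or otherwise up to 4 with the largest differences, could be named, and others were chosen after their values were seen. Like genes were the 5 with the highest r. The genes, lists and settings were chosen with earlier results of these data known.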

Additional observations from a re-analysis of the deposited data

How the results depend on the processing

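Of 540 values of the 9 genes under the alternatives, 498 kept direction and side of the threshold, 31 changed sign and 11 newly passed; none of the 9 genes was called with all arrays, so no call could be lost. Where a sign changed the cause was not tested. Left-out-array ranges that cross 0 were, in Th17 minus Th0, -0.20 to 0.11 (Egr1), -0.50 to 0.027 (Egr2), -0.48 to 0.0056 (Nr4a1), -0.68 to 0.11 (Nr4a2) and -0.10 to 0.28 (Myc), in Th2 minus Th0 -0.18 to 0.17 (Nab2) and in Th17 minus Th2 -0.93 to 0.064 (Myc). Without the 3 arrays high in basophil and mast cell markers Th17 minus Th0 was 0.17 (Egr1), 0.042 (Egr2), 0.42 (Nr4a1), 0.52 (Nr4a2) and 0.35 (Nr4a3), and Th2 minus Th0 of Nab2 was 0.089. Without the 3 arrays apart on the first component, which leaves Th2 replicate 1 as the lone Th2 array, assumed to vary like the other groups, Th2 minus Th0 was -0.39 (Egr2), -0.56 (Nr4a1), -0.80 (Nr4a2), -1.11 (Nr4a3), 0.11 (Nab2) and -0.54 (Myc), and Th17 minus Th2 was 0.0026 (Egr2), 0.34 (Nr4a1), 0.31 (Nr4a2), 0.51 (Nr4a3) and 0.69 (Myc). Nab2 in Th2 minus Th0, near 0, was also 0.017 after a second quantile normalization, 0.0025 with the mean of its probe sets, 0.15 with array weights and 0.041 with the replicate block of the description numbers. With array weights 1 of the 9 genes was called in Th17 minus Th0 (Nab2) and 3 in Th17 minus Th2 (Egr1, Egr3 and Nab2). With 1 array left out, 0 to 3 were called in Th2 minus Th0 and 0 to 4 in Th17 minus Th2, the higher count without Th2 replicate 1. Pairs of genes that passed numbered 17, and 2 without the 2 arrays farthest from the median.

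Over all genes, called counts with 1 array left out ran from 2 to 36 in Th17 minus Th0 (23 with all arrays), 0 to 431 in Th2 minus Th0 (0) and 3 to 298 in Th17 minus Th2 (17). In Th17 minus Th0 the count was 8 with the replicate block, 5 with that of the description numbers, 60 with array weights, 46 without the 3 arrays apart and 3 without the 3 arrays high in basophil markers. In Th2 minus Th0 it was 2 without the 3 arrays apart. In Th17 minus Th2 it was 11 with the replicate block, 5 with that of the description numbers, 30 after a second quantile normalization, 10 with a mean of at least 5, 330 with array weights and 6 without the 3 arrays high in basophil markers. Whether samples of the same number belong together is not stated, and deviations within groups of 3 or 4 arrays cannot decide it. With the title numbers, 1 of 9 same-numbered pairs of arrays deviated together with a correlation over 0.1 (range -0.31 to 0.30). Of differently numbered pairs, 8 of 24 did. With the description numbers, 2 of 8 same-numbered pairs did, against 7 of 25 others. Th17 replicate 4 and Th2 replicate 3, both apart on the first component, share a description number (0.49). Neither block changed the call of any of the 9 genes.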
